A study of Mus musculus with 4 samples.

Results

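The genes described here are those of glycolysis and gluconeogenesis, the route that splits glucose to pyruvate and lactate and the route that runs back. They were chosen as the genes to which the deposited annotation assigns the KEGG pathway Glycolysis / Gluconeogenesis, which gave 63 of the 34745 genes in the table. Of the 63 genes, 47 had at least 1 count in some library and 43 had enough counts to be tested.

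The study asked how dimethyl itaconate (DI), a membrane-permeable ester of the macrophage metabolite itaconate, affects the formation of osteoclasts. Bone marrow derived monocytes and macrophages (BMMs) of wild-type (wt) male C57BL/6 mice, 8 weeks old, were kept in α-MEM lacking FBS for 12 h. Fresh complete medium with RANKL at 100 ng/mL, the cytokine that turns these cells into osteoclasts, was then given for 24 h to every culture. The RANKL+DI group (2 libraries) also received DI and the RANKL+Veh group (2 libraries) its vehicle, DMSO in the headers of the table. The labels give DI as 20 mM and the methods of the study give the same figure in μM, so the dose is uncertain by the difference between these units. The labels do not say whether the 2 libraries of a group came from separate mice or cultures. The general statement on statistics in the methods gives biological repeats for work in vitro, but more of them than the libraries of a group here, so it does not settle this. The p-values then measure only the spread between these libraries, which may be technical. The cells are primary and mixed, and no genotype was altered.

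Read counts per library ranged from 16085692 to 19403480. Before scaling, 3 counts corresponded to 0.155 to 0.187 CPM, counts divided by the library total in megareads. Counts were scaled by TMM factors of 0.963 and 0.967 with DI and 1.04 in both vehicle libraries. The quasi-likelihood test of edgeR was run on 12590 genes. The CPM of genes and markers below are TMM-scaled, the library total over the tested genes being multiplied by its factor. All 8 macrophage markers of the list had counts in every library. Of the 10 osteoclast markers Calcr, a marker of mature osteoclasts, had no count in any library. Acp5 stood at 22.1 and 20.3 CPM with DI and 43.3 and 38.8 CPM with vehicle. Of the same 10 markers 2 were higher with DI and 5 lower at an adjusted p below 0.05 (edgeR). Markers of B cells, T and NK cells, mast cells and erythroid cells summed to at most 1.05 CPM in any library. Those of neutrophils summed to 8.85 to 10.2 CPM with DI and 7.25 to 8.35 CPM with vehicle, and those of stromal cells to 41.5 to 43.5 CPM with DI and 44.4 to 51.6 CPM with vehicle, with no marker of either list passing the test.

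In glycolysis, hexokinases trap glucose as glucose 6-phosphate, phosphofructokinase commits it, aldolase splits the sugar into trioses, and the lower steps regain ATP on the way to pyruvate. Lactate dehydrogenase then turns pyruvate into lactate, whereas the pyruvate dehydrogenase complex sends it to acetyl-CoA in mitochondria. Activated macrophages are known for high glycolysis, and differentiating osteoclasts also draw on it. The KEGG pathway also holds enzymes for steps taken only in gluconeogenesis and a set of side enzymes that handle aldehydes, alcohols and acetate.

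With DI, 12 of the 43 tested genes were higher at an adjusted p below 0.05 and none was lower, while 31 did not pass. At an unadjusted p below 0.05 edgeR gave 17 higher and 2 lower, the latter Pdha1 and Pdhb. The share of all tested genes at that unadjusted threshold was not computed, so these counts have no background to be read against. The DESeq2 Wald test, the edgeR exact test and limma-voom each gave 12 higher and none lower after adjustment. Over all tested genes 7.14% were higher and 7.7% lower at an adjusted p below 0.05 in edgeR, against 27.9% of the pathway genes higher. The 12 genes were Hk3, Pgm2, Gpi1, Pfkp, Aldoa, Aldoc, Pgk1, Pgam1, Pkm, Akr1a1, Aldh2 and Acss2, with log2 fold changes from 0.26 to 1.45. For each of the 12 both DI libraries lay above both vehicle libraries. In all, the groups did not overlap for 24 genes in the higher direction and 3 in the lower, where 29% and 29.6% of all tested genes did so. Overlap of groups, here and below, is that on the TMM scale, and for changes near 0 it can turn with the scaling. The median log2 fold change of the 43 genes was 0.15, against 0.0012 over all tested genes.

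The share of genes that passed differed with abundance. Among the 2067 tested genes of at least 100 CPM, 21% were higher and 13.1% lower with DI. Among the 10523 below that level 4.42% were higher and 6.63% lower. Of the 19 pathway genes of at least 100 CPM 9 were higher, and of the 24 below it 3 were higher. The 2067 abundant genes had a median log2 fold change of 0.032.

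Pathway genes took 1.43% and 1.42% of the reads with DI and 1.24% and 1.20% with vehicle. The 95% Wilson intervals of these shares were at most 0.011 percentage points wide, and cover counting error only. On the TMM scale the summed level was 14906 and 14701 CPM with DI and 11966 and 11619 CPM with vehicle, a log2 difference of 0.33. Both DI libraries were thus above both vehicle libraries, but an exact two-sided permutation test of 2 against 2 cannot go below p = 0.333. Pkm and Akr1a1 alone accounted for 30.0% and 29.9% of the net difference in mean CPM. The macrophage markers moved in the same direction, from a summed 22261 to 23125 CPM with vehicle to 28443 to 29258 CPM with DI, most of it Lyz2. Of those 8 markers 5 were higher and 2 lower. The osteoclast markers summed to 714 to 731 CPM with DI and 741 to 764 CPM with vehicle, 2 of them higher and 5 lower. Most of that sum was Atp6v0d2, which was higher, at 509 and 509 CPM with DI and 427 and 418 CPM with vehicle. The other higher marker was Itgb3, and the lower ones were Acp5, Ctsk, Nfatc1, Ocstamp and Mmp9. In bulk RNA, fewer cells of a type and less RNA per cell cannot be told apart, and the part of cell state or cell mixture in the pathway's rise was not tested.

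**Figure D1:**
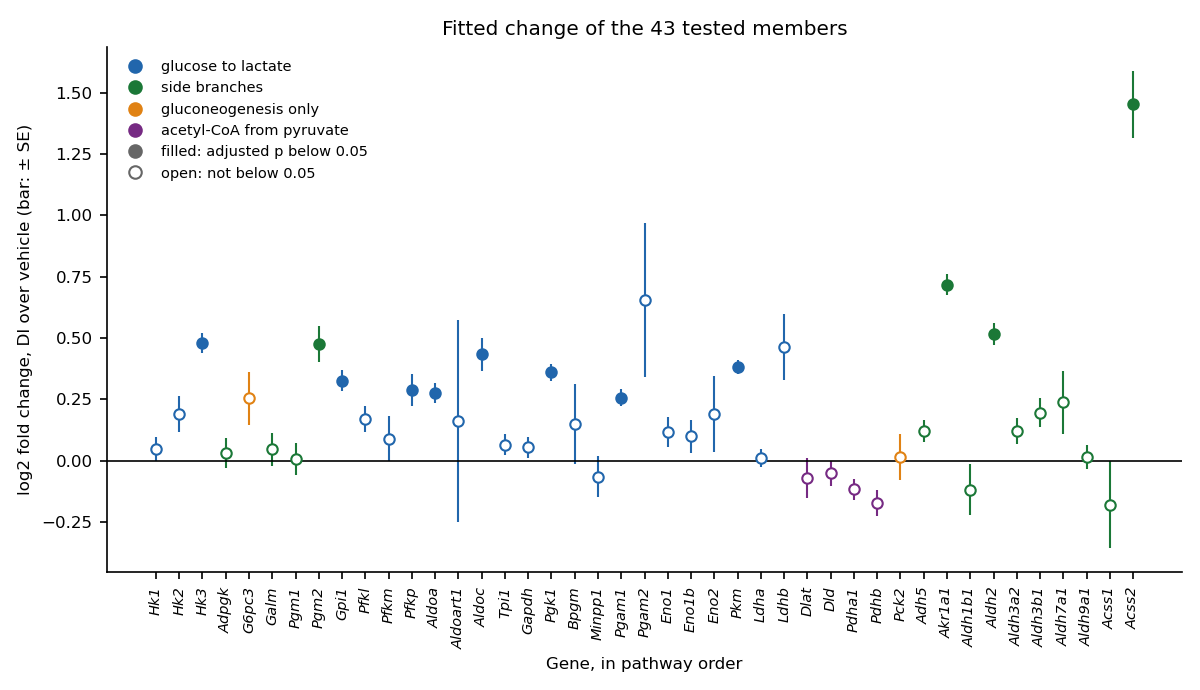
Fitted log2 fold change of DI over vehicle for the 43 tested genes in pathway order, with bars of ± 1 standard error. Colors mark the 4 parts of the pathway, and the 12 filled points passed an adjusted p of 0.05, all of them above 0 and the highest of them Acss2 at 1.45.

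Promoter sequence was at hand for 38 of the 43 tested genes, from RefSeq on GRCm38.p6, as windows of 250 bases before to 50 bases after each start. The windows given are those of Pkm, the gene with the highest mean level of the pathway, Pgk1 and Akr1a1, which rose with it, Acss2, which rose the most, and Ldha, which did not pass the test. Pkm and Ldha each have 2 windows, of which the one with matches is printed, and the other window of each held no match of the capitalized motifs. Each window reads 5′ to 3′ along the gene, and the capitals mark every match of ACGTG, the core letters of the hypoxia response element, of TGACNNNGC, those of the antioxidant response element, of the E-box CACGTG and of TCACNCCAC, on either strand.
Pkm (chr9:59656977-59657276, plus strand): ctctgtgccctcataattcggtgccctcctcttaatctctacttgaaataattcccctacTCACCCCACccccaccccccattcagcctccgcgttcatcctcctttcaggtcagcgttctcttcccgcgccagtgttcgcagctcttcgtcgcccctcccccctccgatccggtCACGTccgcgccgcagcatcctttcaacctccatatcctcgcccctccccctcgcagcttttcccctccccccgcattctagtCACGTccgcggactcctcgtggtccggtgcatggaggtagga
Pgk1 (chrX:106186850-106187149, plus strand): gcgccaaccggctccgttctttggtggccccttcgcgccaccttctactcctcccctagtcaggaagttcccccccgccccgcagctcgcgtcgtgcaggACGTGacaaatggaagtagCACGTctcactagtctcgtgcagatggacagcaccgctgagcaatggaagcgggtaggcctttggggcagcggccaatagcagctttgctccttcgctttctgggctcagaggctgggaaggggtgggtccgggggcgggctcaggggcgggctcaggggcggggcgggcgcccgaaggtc
Akr1a1 (chr4:116651625-116651924, minus strand): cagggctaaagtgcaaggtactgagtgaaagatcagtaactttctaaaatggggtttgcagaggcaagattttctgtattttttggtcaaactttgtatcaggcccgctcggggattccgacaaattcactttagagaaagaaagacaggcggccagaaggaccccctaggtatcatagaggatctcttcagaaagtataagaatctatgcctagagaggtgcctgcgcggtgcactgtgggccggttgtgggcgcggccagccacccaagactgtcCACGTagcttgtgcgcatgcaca
Acss2 (chr2:155517793-155518092, plus strand): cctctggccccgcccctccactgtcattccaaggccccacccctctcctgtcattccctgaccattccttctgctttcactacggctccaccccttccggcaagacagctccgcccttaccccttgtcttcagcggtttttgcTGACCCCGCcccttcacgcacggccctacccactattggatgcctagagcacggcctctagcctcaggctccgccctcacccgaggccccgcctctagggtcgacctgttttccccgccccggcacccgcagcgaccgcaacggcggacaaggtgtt
Ldha (chr7:46845554-46845853, plus strand): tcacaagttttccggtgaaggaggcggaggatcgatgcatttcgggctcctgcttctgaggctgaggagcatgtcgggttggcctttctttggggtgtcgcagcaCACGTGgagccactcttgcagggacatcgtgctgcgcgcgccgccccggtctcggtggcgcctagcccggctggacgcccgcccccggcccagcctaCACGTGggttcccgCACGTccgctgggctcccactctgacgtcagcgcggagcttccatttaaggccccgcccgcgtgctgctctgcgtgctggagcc

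ACGTG occurred in 22 of the 50 windows of the pathway genes (44.0%), where 19.6% of all 32851 windows held it. By gene it was in 20 of the 38 genes, 8 of the 11 higher genes with a window among them. No share by gene was computed over all genes, and a gene with several windows has more chances of a match. Among the windows of higher genes 9 of 15 held it, and among those of the other genes 13 of 35. Ldha, Hk1, Hk2 and Gapdh were among the 12 genes that held the letters without passing the test. TGACNNNGC was in 12.0% of the pathway windows and 12.4% of all windows, and in Acss2 and Aldoa among the higher genes. CACGTG, which contains ACGTG, was in 8.00% against 7.15%, and TCACNCCAC in 6.00% (3 of 50 windows) against 1.24%. The GC box GGGCGG, not capitalized above, was in 54.0% against 35.7%. The 32851 windows were not limited to genes tested here. Several windows of a gene can overlap, and a match of letters does not show that a factor binds there.

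From glucose to lactate 23 of 31 genes were tested, 8 were higher and none lower, with a median log2 fold change of 0.19. By comparison, 7.14% of all tested genes were higher and 7.7% lower, and 21% and 13.1% of those of at least 100 CPM. The 8 genes fell in 7 of the 11 steps and rose by 19.5% to 39.5%. The steps without a higher gene were those of triose phosphate isomerase, glyceraldehyde phosphate dehydrogenase, enolase and lactate dehydrogenase.

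Glucose is phosphorylated by hexokinases, of which Hk3, the isoform typical of myeloid cells, was the most abundant here. Hk3 (ENSMUSG00000025877, chr13:55005985-55021385, minus strand) stood at 429.6 and 423 CPM with DI and 314 and 298 CPM with vehicle. It rose, to 426 ± 4.42 CPM in RANKL+DI against 306 ± 11.3 CPM in RANKL+Veh (mean ± SD, n = 2), with log2 fold change 0.48, standard error 0.042, adjusted p = 0.00196. Neither replicate of one group reached those of the other. Hk2, the inducible isoform, and the widely expressed Hk1 did not pass, at log2 fold changes of 0.19 and 0.05. Hk1 stood at 158 and 147 CPM with DI and 147 and 147 CPM with vehicle, so that its groups overlapped. As counts per kilobase of the longest coding transcript, Hk3 made up 73.2 and 73.7% with DI and 68.0 and 67.4% with vehicle of the hexokinase level. The ratio of Hk3 to Hk1 counts within a library, on which scaling has no bearing, was 2.72 and 2.88 with DI and 2.13 and 2.02 with vehicle. Adpgk, an enzyme that phosphorylates glucose with ADP, stood at 46.6 and 45.5 CPM with DI and 44.9 and 45.2 CPM with vehicle with a log2 fold change of 0.03.

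Gpi1, the isomerase that turns glucose 6-phosphate into fructose 6-phosphate (ENSMUSG00000036427, chr7:34201330-34230336, minus strand), rose, to 450.2 ± 16.4 CPM in RANKL+DI against 359 ± 7.59 CPM in RANKL+Veh (mean ± SD, n = 2), with log2 fold change 0.33, standard error 0.042, adjusted p = 0.00639. Its libraries stood at 439 and 462 CPM with DI and 354 and 365 CPM with vehicle. A pseudogene copy in the table held 9.92% of the counts of Gpi1, and Gm26762 on the opposite strand covers 11.5% of its exons. No source used here says that strand was used in counting, so reads of such partners cannot be told apart.

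Of the phosphofructokinases, which make fructose 1,6-bisphosphate, Pfkp, the platelet type, passed and Pfkl and Pfkm did not. Pfkp (ENSMUSG00000021196, chr13:6579768-6648777, minus strand) stood at 130.2 and 142 CPM with DI and 107 and 116 CPM with vehicle (log2 fold change 0.29, standard error 0.064, adjusted p = 0.0349). This call was the least stable of the 12, lost in 7 of 17 other settings with adjusted p-values of up to 0.162 (edgeR or limma). It was lost without DI replicate 2 (adjusted p = 0.101), without vehicle replicate 1 (0.127) and without vehicle replicate 2 (0.0565). Pfkl, the liver type, stood at 81.2 and 82.7 CPM with DI and 72.4 and 73.4 CPM with vehicle without overlap (log2 fold change 0.17, standard error 0.053, adjusted p = 0.0888). Pitrm1 covers 5.58% of the exons of Pfkp on the opposite strand. The muscle type Pfkm had a log2 fold change of 0.09. Which of Pfkl and Pfkp was the more abundant depended on the gene length used. Pfkl held 49.7 and 48.9% with DI and 50.5 and 49.8% with vehicle of the step in the deposited FPKM, and Pfkp held 53.0 and 55.0% with DI and 50.8 and 52.5% with vehicle by coding transcript length.

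Aldolase A and C, which cleave fructose 1,6-bisphosphate, were both higher. Aldoa (ENSMUSG00000030695, chr7:126795234-126800751, minus strand), the main form here, stood at 1422 and 1352 CPM with DI and 1174 and 1118 CPM with vehicle (log2 fold change 0.28, standard error 0.042, adjusted p = 0.0106). Aldoc (ENSMUSG00000017390, chr11:78322968-78327781, plus strand) stood at 55.3 ± 2.94 CPM in RANKL+DI against 41.0 ± 0.0914 CPM in RANKL+Veh (mean ± SD, n = 2), with log2 fold change 0.43, standard error 0.068, adjusted p = 0.0119. Even so Aldoa kept 97.8% and 97.8% of the aldolase level with DI and 98.1% and 98.0% with vehicle by coding length. The counts of Aldoart1, a retrogene expressed in testis, were near the detection floor.

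The next 2 steps did not pass. Tpi1, which interconverts the trioses, stood at 479 and 456 CPM with DI and 438 and 455 CPM with vehicle (log2 fold change 0.07, standard error 0.043, adjusted p = 0.365). Gapdh, which oxidizes glyceraldehyde 3-phosphate, stood at 221 and 211 CPM with DI and 211 and 204 CPM with vehicle (log2 fold change 0.05, standard error 0.044, adjusted p = 0.475). Both sets of values lay close together, and those of Gapdh overlapped. The level of Gapdh is uncertain, since its transcript has 78 near-identical copies in the genome, 75 of them pseudogenes, and how reads that match several places were counted is not given in the sources used here. The 6 copies in the table held 1.13% of its counts.

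The ATP-forming step of Pgk1 (ENSMUSG00000062070, chrX:106187100-106203699, plus strand) was higher in each DI library, at 1074 and 1072 CPM with DI and 854 and 818 CPM with vehicle (log2 fold change 0.36, standard error 0.036, adjusted p = 0.00298). Pgam1 (ENSMUSG00000011752, chr19:41911871-41918664, plus strand), the mutase that follows, rose, to 726 ± 7.50 CPM in RANKL+DI against 607 ± 3.30 CPM in RANKL+Veh (mean ± SD, n = 2), with log2 fold change 0.26, standard error 0.033, adjusted p = 0.00610. Its libraries stood at 731 and 721 CPM with DI and 605 and 609.7 CPM with vehicle, so the groups were separated by more than the spread within either. A pseudogene copy held 12.8% of the counts of Pgam1. Pgam2, the muscle form, had the third highest fitted change of the pathway but only 22 and 23 counts with DI and 15 and 13 counts with vehicle, and did not pass (log2 fold change 0.66, standard error 0.31, adjusted p = 0.227).

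Enolase did not pass in any form. Eno1b, which the deposited FPKM rank first, stood at 199 and 208 CPM with DI and 202 and 178 CPM with vehicle (log2 fold change 0.10, standard error 0.067, adjusted p = 0.385), and Eno1 at 369 and 343 CPM with DI and 344 and 313 CPM with vehicle. Vehicle and DI libraries overlapped for both. The 2 genes are near-identical copies of each other, so how their reads were divided is uncertain. Their order also turned with the gene length, Eno1b holding 70.4 and 72.8% with DI and 72.2 and 71.6% with vehicle of the enolase level in FPKM but 37.6 and 40.3% with DI and 39.5 and 38.9% with vehicle by coding length. With the counts of copies added to each gene, neither passed.

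Pkm (ENSMUSG00000032294, chr9:59656368-59679375, plus strand), whose product, pyruvate kinase, ends glycolysis with a second ATP-forming step, had the highest mean level of the pathway over the 4 libraries, both in FPKM and per coding transcript length, although by coding length Akr1a1 was above it in both DI libraries. It stood at 3885 and 3870.3 CPM with DI and 3000.4 and 2950.1 CPM with vehicle, that is 3878 ± 10.2 CPM in RANKL+DI against 2975 ± 35.5 CPM in RANKL+Veh (mean ± SD, n = 2), with log2 fold change 0.38, standard error 0.029, adjusted p = 0.00132. The libraries within a group differed by far less than the groups did. Pkm took 26.1% and 26.3% of the pathway's reads with DI and 25.1% and 25.4% with vehicle. The table holds 1 count per gene, so the M1 and M2 splice forms could not be separated. Gm49759, on the same strand and not in the table, covers 15.3% of the exons of Pkm.

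Ldha, which reduces pyruvate to lactate, did not pass. It stood at 935 and 900.0 CPM with DI and 924 and 897 CPM with vehicle (log2 fold change 0.01, standard error 0.037, adjusted p = 0.878, edgeR), and the groups overlapped on this TMM scale. In the deposited FPKM, which carry no TMM factor, Ldha stood at 196.0 and 189.5 with DI and 208.5 and 202.5 with vehicle, without overlap. Within each library there were 4.15 and 4.30 Pkm counts per Ldha count with DI and 3.25 and 3.29 with vehicle. Both Ldha and Pkm have pseudogene copies that are not in the table. Ldhb, the form named for heart, had 126 and 151 counts with DI and 103 and 94 counts with vehicle. It lay higher in both DI libraries without passing (log2 fold change 0.46, standard error 0.14, adjusted p = 0.0761).

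**Figure D2:**
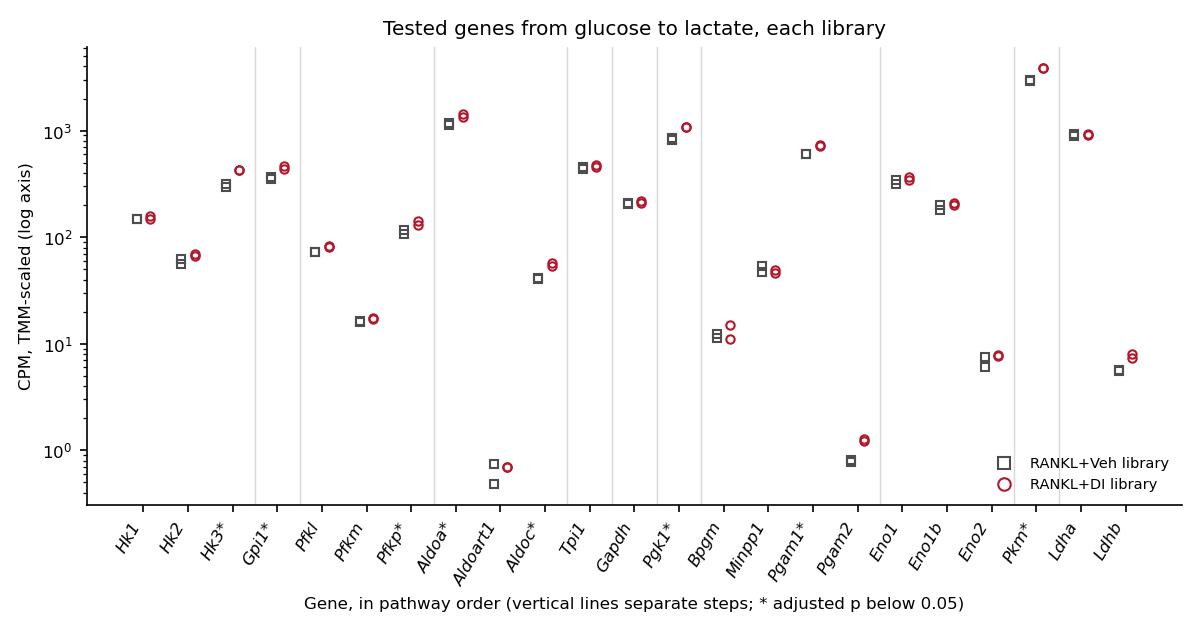
TMM-scaled CPM of the 23 tested genes from glucose to lactate on a log axis, with squares for the 2 RANKL+Veh libraries and circles for the 2 RANKL+DI libraries of each gene. The 8 genes with an asterisk passed an adjusted p of 0.05, and the libraries of Ldha, Gapdh, Eno1 and Hk1 lie over each other.

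The pyruvate dehydrogenase complex, which turns pyruvate into acetyl-CoA in mitochondria, had no subunit that passed. Its 4 tested subunits in the KEGG pathway had log2 fold changes below 0, with a median of -0.094. Their summed FPKM gave a log2 difference of -0.11 with TMM and -0.21 with library size only. Pdhx, a further subunit that the KEGG term does not hold, did not pass either (log2 fold change -0.076, standard error 0.075, adjusted p = 0.552, edgeR). Pdhb, the beta subunit of the E1 enzyme, stood at 69.9 and 70.5 CPM with DI and 78.4 and 79.6 CPM with vehicle (log2 fold change -0.17, standard error 0.053, adjusted p = 0.0893). Pdha1, the alpha subunit, stood at 119 and 121 CPM with DI and 129.5 and 131 CPM with vehicle (log2 fold change -0.12, standard error 0.042, adjusted p = 0.126). For both, each DI library was below each vehicle library, by small amounts, and both passed as lower in edgeR with library size only and in limma on log2 FPKM, which likewise carries no TMM factor. Map3k15 covers 16.1% of the exons of Pdha1 on the opposite strand. Dld, the E3 enzyme and the most abundant subunit in FPKM, stood at 129 and 138 CPM with DI and 138 and 139 CPM with vehicle and overlapped, as did Dlat, the E2 enzyme. The ratio of Pkm to Pdhb counts was 55.6 and 54.9 with DI and 38.3 and 37.1 with vehicle.

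Genes of the steps taken only in gluconeogenesis were scarce, and other uses of their enzymes were not examined. Of these 7 genes, G6pc, G6pc2, Fbp1, Fbp2 and Pck1 had no count in any library. This allows up to 0.187 CPM, before TMM scaling, in the shallowest one. The remaining 2 were tested and did not pass. G6pc3, the widely expressed glucose-6-phosphatase, stood at 20.1 and 20.8 CPM with DI and 15.8 and 18.5 CPM with vehicle (log2 fold change 0.25, standard error 0.11, adjusted p = 0.182). Pck2, the mitochondrial form of PEP carboxykinase, stood at 18.1 and 19.6 CPM with DI and 18.5 and 18.9 CPM with vehicle (log2 fold change 0.02, standard error 0.092, adjusted p = 0.938). RNA of fructose bisphosphatase and of the cytosolic carboxykinase was thus not detectable at this depth.

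Of the side branches 14 of 20 genes were tested, 4 were higher and none lower, where 7.14% and 7.7% of all tested genes were. Pgm2, a phosphoglucomutase between glycogen and glucose 6-phosphate, stood at 69.2 and 62.6 CPM with DI and 48.4 and 46.4 CPM with vehicle (log2 fold change 0.47, standard error 0.074, adjusted p = 0.0115). This symbol follows the deposited table (ENSMUSG00000025791, chr4:99929414-99987294, plus strand), and RefSeq now calls it Pgm1. The table's Pgm1, on chromosome 5, stood at 43.3 and 41.1 CPM with DI and 42.5 and 41.5 CPM with vehicle with a log2 fold change of 0.01, and its groups overlapped. Without vehicle replicate 2 the adjusted p of Pgm2 was 0.0520 (edgeR). Of the exons of Pgm2 13.6% overlap Itgb3bp on the opposite strand.

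Akr1a1, an aldehyde reductase that uses NADPH to turn reactive aldehydes into alcohols, had the second highest fold change among the pathway genes. Akr1a1 (ENSMUSG00000028692, chr4:116636510-116651680, minus strand) stood at 2309.5 and 2288 CPM with DI and 1450.2 and 1345 CPM with vehicle. It rose, to 2299 ± 15.5 CPM in RANKL+DI against 1397 ± 74.6 CPM in RANKL+Veh (mean ± SD, n = 2), with log2 fold change 0.72, standard error 0.043, adjusted p = 0.000648. By coding length it held 80.4 and 80.6% with DI and 75.8 and 75.0% with vehicle of the level of the alcohol and aldehyde dehydrogenases. Aldh2, the mitochondrial aldehyde dehydrogenase (ENSMUSG00000029455, chr5:121566027-121593824, minus strand), rose, to 689 ± 1.5 CPM in RANKL+DI against 481 ± 24.4 CPM in RANKL+Veh (mean ± SD, n = 2), with log2 fold change 0.52, standard error 0.044, adjusted p = 0.00195. Both DI libraries of Aldh2, at 689.6 and 688 CPM, were above those with vehicle at 499 and 464 CPM. The other 6 tested genes of this class did not pass, with Aldh1b1 the lowest at -0.12 (10.5 and 10.7 CPM with DI and 11.5 and 11.6 CPM with vehicle).

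The acetyl-CoA synthetases make acetyl-CoA from acetate, Acss2 in cytosol and nucleus and Acss1 in mitochondria. Acss2 (ENSMUSG00000027605, chr2:155517948-155585724, plus strand) had the highest fold change of the pathway. Its libraries held 462 and 422 counts with DI and 180 and 139 counts with vehicle, that is 26.9 and 22.5 CPM with DI and 9.66 and 8.35 CPM with vehicle (log2 fold change 1.45, standard error 0.14, adjusted p = 0.00248). Acss1 had the lowest, at 8.51 and 8.21 CPM with DI and 8.00 and 10.99 CPM with vehicle (log2 fold change -0.18, standard error 0.18, adjusted p = 0.555), with vehicle libraries that lay apart. Within a library there were 3.16 and 2.74 Acss2 counts per Acss1 count with DI and 1.21 and 0.760 with vehicle. By coding length Acss2 made up 79.6 and 77.2% with DI and 59.9 and 48.4% with vehicle of the pair. Gss, with 670 counts on average, covers 3.89% of the exons of Acss2 on the opposite strand.

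Summed over the isozymes of a step on the deposited FPKM, scaled by TMM, the log2 differences between DI and vehicle were 0.38 for hexokinases, 0.19 for phosphofructokinases, 0.28 for aldolases, 0.24 for phosphoglycerate mutases, 0.10 for enolases and 0.02 for lactate dehydrogenases. With library size only the same sums gave 0.28, 0.091, 0.18, 0.14, 0.0014 and -0.085. Leaving out vehicle replicate 1 moved the enolase sum to 0.19 and leaving out vehicle replicate 2 to 0.023, and that for lactate dehydrogenases ranged from -0.0072 to 0.044 with 1 library left out. For the acetyl-CoA synthetases the sum gave 0.47 on FPKM and 0.92 by coding length, since the length behind the FPKM of Acss2 was far longer than its transcript.

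**Figure D3:**
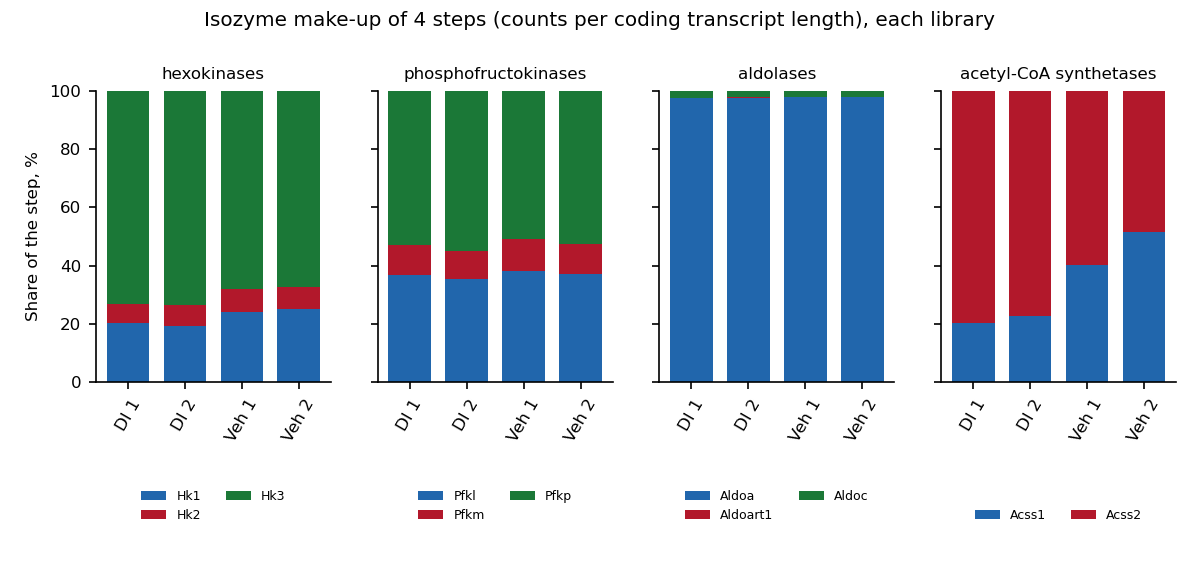
Share in percent of each isozyme in the level of its step, as counts per coding transcript length, for each of the 4 libraries and 4 steps of the pathway. Hk3 held more of the hexokinase level in both DI libraries (73.2% and 73.7%) than with vehicle (68.0% and 67.4%), Acss2 took the larger part of its step with DI, and Aldoa held 97.8% to 98.1% of the aldolase level in every library.

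Of the 20 genes that were not tested, 16 had no count in any library. Besides those of gluconeogenesis they included Hkdc1, Pgk2, Pklr, Ldhal6b, Ldhc, Pdha2, Adh1, Adh4 and Aldh3b2, many of them forms known from liver or testis. The other 4, Gapdhs, Aldh1a3, Aldh3a1 and Aldh3b3, had 0 to 7 counts per library.

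Scaling bears on how many genes lie on each side of 0, since the changes are small. With library size as the only scaling, the median over all tested genes moved to -0.10 on the log2 scale and that of the pathway genes to 0.047. On that scale 25 pathway genes lay above 0 and 18 below, against 36 and 7 with TMM. Then 11 genes were higher, Pfkp being lost, and Pdha1 and Pdhb were lower, where 4.35% of all tested genes were higher and 15.3% lower. DESeq2 size factors, upper quartile factors and TMM factors computed without the pathway genes each left the same 12 genes higher and none lower. Scaled to Gapdh, a choice made after the data were seen, 11 genes were higher, again without Pfkp, and none lower, against 4.05% and 7.86% of all tested genes. The median of the pathway genes stayed 0.149 to 0.152 above that of all tested genes under the 6 scalings, a difference that a factor per library cannot change much.

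**Figure D4:**
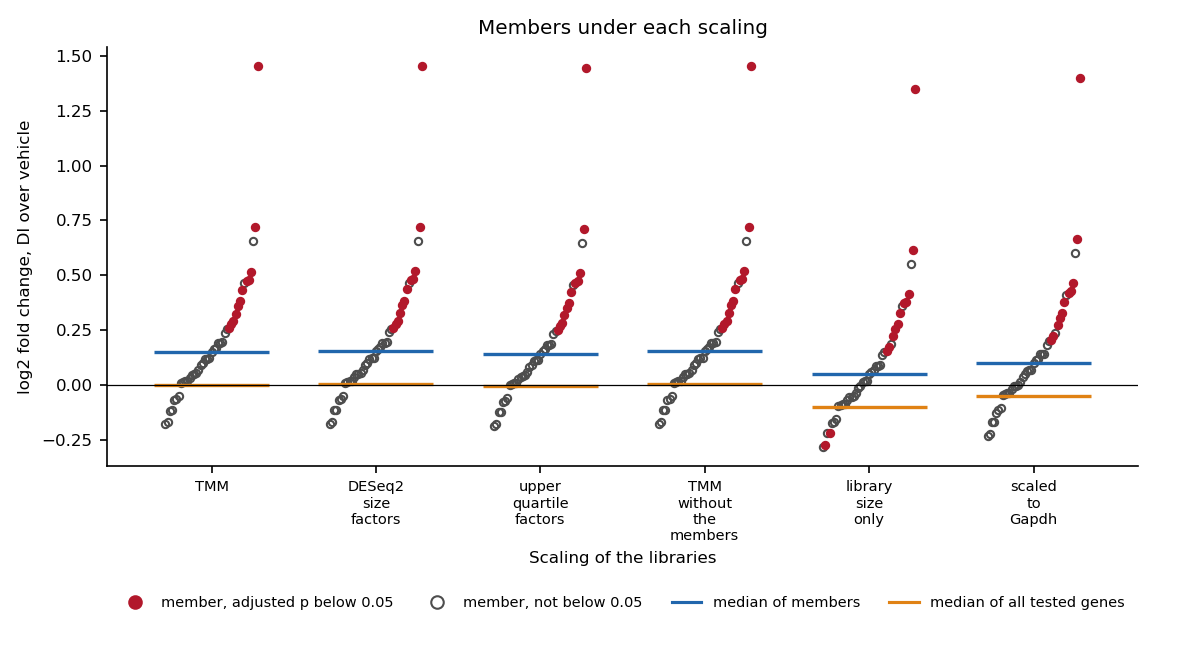
Log2 fold changes of the tested pathway genes, sorted within each of 6 scalings of the libraries, with filled points for an adjusted p below 0.05 and lines for the medians of the pathway genes and of all tested genes. Both medians drop together with library size only (0.047 and -0.10), where Pdha1 and Pdhb become filled points below 0.

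Around the pathway, a list of 48 transport and regulation genes that its KEGG term does not hold was counted. Of these, 47 were in the table and 44 were tested, 7 higher and 2 lower, with a median log2 fold change of 0.13. Over all tested genes 7.14% were higher and 7.7% lower.

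Of the transporters, Slc2a1 (GLUT1), the basal glucose importer, stood at 153 and 152 CPM with DI and 96.5 and 103 CPM with vehicle (log2 fold change 0.62, standard error 0.049, adjusted p = 0.00156, edgeR). Of the 4 tested glucose transporters only Slc2a1 passed, and their median log2 fold change was -0.036. The 2 lactate carriers that passed went in opposite directions. Slc16a1 (MCT1), which carries lactate and pyruvate both ways, fell, at 21.1 and 18.6 CPM with DI and 35.5 and 34.5 CPM with vehicle (log2 fold change -0.82, standard error 0.089, adjusted p = 0.00376). Slc16a3 (MCT4), a lactate exporter of glycolytic cells, stood at 117 and 109 CPM with DI and 91.3 and 96.9 CPM with vehicle (log2 fold change 0.27, standard error 0.059, adjusted p = 0.0343), a call lost in 9 of 17 other settings. Among these were the fits without DI replicate 1 (adjusted p = 0.121), without vehicle replicate 1 (0.125) and without vehicle replicate 2 (0.0660). The mitochondrial pyruvate carrier gene Mpc1, named after its values were seen, had 386 and 193 counts with DI and 145 and 156 counts with vehicle, so the DI libraries lay far apart and its log2 fold change of 0.93 did not pass.

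Among the regulators, Pfkfb4, a kinase and phosphatase that sets fructose 2,6-bisphosphate, stood at 34.8 and 34.7 CPM with DI and 21.8 and 22.2 CPM with vehicle (log2 fold change 0.66, standard error 0.070, adjusted p = 0.00356, edgeR). Of the 5 tested fructose-2,6-bisphosphate enzymes only Pfkfb4 passed, and their median log2 fold change was 0.11. Pdp1, the phosphatase that activates pyruvate dehydrogenase, stood at 62.1 and 61.1 CPM with DI and 45.7 and 48.8 CPM with vehicle (log2 fold change 0.38, standard error 0.065, adjusted p = 0.0147, edgeR). This call was lost in 3 of 17 other settings, among them the fit without vehicle replicate 1. With 1 library left out the log2 fold change of Pdp1 was 0.34 to 0.43. Hif1a, the oxygen-regulated factor that many glycolytic genes answer to, stood at 165 and 161 CPM with DI and 161 and 172 CPM with vehicle and did not pass (log2 fold change -0.04, standard error 0.049, adjusted p = 0.687, edgeR). These values are of Hif1a RNA, and the protein and activity of the factor were not measured. None of the 8 genes for hypoxia factors and oxygen sensors passed in edgeR, 1 of them having an unadjusted p below 0.05. The 11 tested hypoxia-responsive genes outside glycolysis had a median log2 fold change of 0.19, and Car9 alone lay below 0, at -0.026. In edgeR Mxi1, Vegfa, Bnip3l and P4ha1 lay above 0 with unadjusted p-values of 0.0078, 0.0093, 0.015 and 0.035, and did not pass. Of the 11 genes 2 passed, both higher. They were Bnip3, a mitophagy receptor, at 36.9 and 36.4 CPM with DI and 26.5 and 26.4 CPM with vehicle (log2 fold change 0.47, standard error 0.066, adjusted p = 0.00778), and P4ha2, a collagen prolyl hydroxylase, at 16.7 and 15.8 CPM with DI and 8.91 and 8.89 CPM with vehicle (log2 fold change 0.87, standard error 0.10, adjusted p = 0.00504).

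Among genes of glucose sensing, Txnip, which restrains glucose uptake, stood at 261 and 295 CPM with DI and 218 and 176 CPM with vehicle (log2 fold change 0.50, standard error 0.11, adjusted p = 0.0334), with a wide spread in both groups. The call was lost in 6 of 17 other settings, also without DI replicate 2 (adjusted p = 0.0677) and without vehicle replicate 2 (0.0657). Myc, a transcription factor with many glycolytic targets, fell, at 26.6 and 24.2 CPM with DI and 51.5 and 41.2 CPM with vehicle (log2 fold change -0.87, standard error 0.12, adjusted p = 0.00778). Its vehicle libraries lay apart from each other, but both above those with DI.

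**Figure D5:**
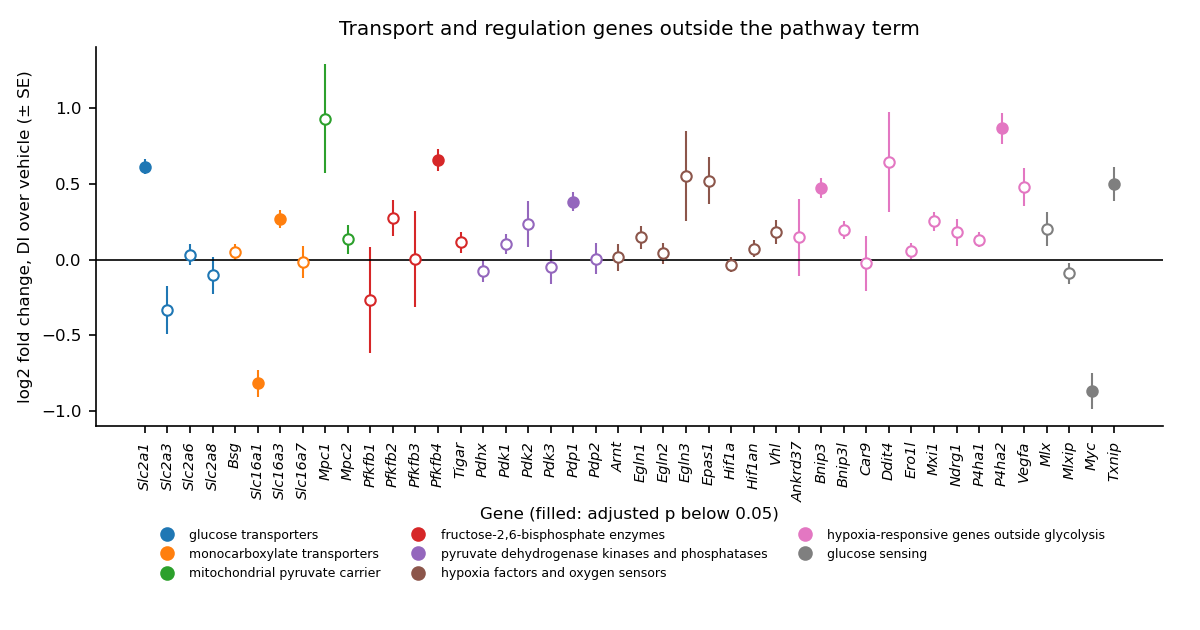
Fitted log2 fold change of DI over vehicle, with bars of ± 1 standard error, for the 44 tested genes of glucose and lactate transport, regulation, hypoxia and glucose sensing. Filled points passed an adjusted p of 0.05, 7 above 0 with P4ha2 the highest at 0.87, and Slc16a1 and Myc below 0.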

How the data were processed

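RNA-seq of mRNA libraries from the 4 samples was used. The authors deposited raw read counts for each gene in each library, and FPKM values computed from them. A second table held the same values with KEGG terms. The labels name the builds GRCm38 and mm10. The aligner, counting program and annotation release are not given in the sources used here. For 68.3% of 10799 genes with over 50 counts, the gene length behind the deposited FPKM was within 1% of the sum of all distinct exons, overlapping ones counted repeatedly. Levels between genes were therefore also taken per longest coding transcript of GENCODE M21.

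Counts were fitted with edgeR 4.0.16 (R 4.3.3; TMM factors, filterByExpr, quasi-likelihood test with treatment as the sole term, 2 residual degrees of freedom), and p-values were adjusted by Benjamini-Hochberg over all 12590 tested genes, with 0.05 as threshold. Replicates of a group differed beyond sampling noise (chi-square per degree of freedom 8.06 and 8.23). Alternatives used DESeq2 1.42.0, limma 3.58.1 and log2(FPKM + 0.01) or log2(FPKM + 1). The fit was also run on simulated counts with known fold changes. Those were larger than any that passed from glucose to lactate, so the run does not cover changes of that size. Copies were sought with BLAST 2.17.0 (identity of at least 95% over at least 20% of a transcript). Floors and intervals cover counting error only.

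The pathway genes and lists were chosen with earlier results of these data known. Named with values are the tested gene with the highest mean FPKM in each step, every gene with an adjusted p below 0.05, and the 3 highest and 3 lowest log2 fold changes. Untested genes are named with their range. Further isozymes, subunits, Hif1a and the hypoxia-responsive genes that did not pass were named after their values were seen. Some genes the pathway rule includes are not reported here.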

Additional observations from a re-analysis of the deposited data

How the results depend on the processing

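With 2 libraries a group, small changes of scarce genes could not be detected, and reads shared with copies or opposite-strand genes limit Gapdh, Eno1, Eno1b, Gpi1 and Pgam1. The other settings called 10 to 13 pathway genes, and none turned the direction of the 12 higher ones. Pfkp was lost in 7 of 17 settings, Aldoa on both FPKM scales (adjusted p = 0.0514 and 0.0529, limma) and Pgm2 without vehicle replicate 2. Pdha1 and Pdhb became lower calls with library size only and on both FPKM scales, and Pgam2 a higher call on both FPKM scales. The causes were not tested. The groups share replicate numbers, but samples with the same number did not deviate together (correlation -0.030 over genes). This single correlation cannot tell whether such samples share a mouse or a batch. With the replicate block 12 pathway genes and 1389 of all genes were called, and the pathway median was 0.136. With each library left out in turn, 1073 to 1369 of all genes and 10 to 12 pathway genes were called, the pathway median was 0.11 to 0.15 and the summed level 0.31 to 0.35 (log2). The pathway median was 0.14 with upper quartile factors, 0.136 with at least 10 counts in every library, 0.047 with library size only, 0.029 on log2(FPKM + 0.01), 0.016 on log2(FPKM + 1) and 0.0997 when scaled to Gapdh. The FPKM scales carry no further factor beyond library size. The summed level was 0.22 with library size only and 0.27 scaled to Gapdh. Uncalled genes near 0 changed sign. With library size only they were Hk1 -0.055, Adpgk -0.071, Pgm1 -0.097, Pfkm -0.014, Tpi1 -0.038, Gapdh -0.050, Eno1b -0.0043, Ldha -0.092, Pck2 -0.088, Galm -0.058 and Aldh9a1 -0.088. On log2(FPKM + 0.01) the same genes stood at -0.055, -0.071, -0.097, -0.014, -0.038, -0.049, -0.0015, -0.092, -0.090, -0.057 and -0.088, and on log2(FPKM + 1) at -0.051, -0.067, -0.089, -0.012, -0.038, -0.047, -0.0015, -0.092, -0.076, -0.054 and -0.084. Scaled to Gapdh, Hk1 was at -0.0060, Adpgk at -0.021, Pgm1 at -0.047, Ldha at -0.043, Pck2 at -0.037, Galm at -0.0067 and Aldh9a1 at -0.039, and with upper quartile factors Pgm1 was at -0.0017. With a library left out Hk1 ranged from -0.0030 to 0.10, Pgm1 from -0.031 to 0.046, Ldha from -0.017 to 0.041, Pck2 from -0.040 to 0.069, Acss1 from -0.39 to 0.063, Bpgm from -0.076 to 0.34, Minpp1 from -0.15 to 0.028, Dlat from -0.14 to 0.0043, Aldoart1 from -0.11 to 0.53 and Aldh9a1 from -0.0082 to 0.039.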
